A study of Homo sapiens with 6 samples.

Results

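The genes described here are 39 genes that interferons switch on, taken by name from a list of interferon-stimulated genes, out of 56638 genes in the deposited table. The list follows the known function of each gene, but it was chosen with earlier results of these data known. Interferons are secreted when a cell senses viral nucleic acid, and they signal through receptors and JAK kinases to transcription factors, STAT2 and IRF9 among them, which bind interferon-stimulated response elements at promoters. The genes so induced encode sensors of foreign RNA, further transcription factors and effector proteins that block viral entry, replication or release. Trimethylation of lysine 27 of histone H3 (H3K27me3), deposited by polycomb repressive complex 2 (PRC2), accompanies silent genes, whereas trimethylation of lysine 4 (H3K4me3) accompanies active or poised promoters.

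The libraries came from G401, a cell line from a malignant rhabdoid tumor that lacks the chromatin remodeling subunit SMARCB1. Cells were exposed for 3 days to DMSO, the solvent, or to 3 µM MAK683, a compound that binds the PRC2 subunit EED. From each treatment 1 H3K27me3 ChIP, 1 H3K4me3 ChIP and 1 input library without antibody were sequenced. No library had a replicate, so no difference below could be set against replicate spread and no test was made. The 6 libraries held 13308099 to 21281877 counts in genes. SMARCB1 itself had 0 to 4 counts in each library. All cells of a culture were read together, so the share of cells that carry a modification and its level per cell cannot be told apart.

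Counts were reads over whole genes. They were divided by the total of their library (CPM) and compared as a log2 ratio, either of a ChIP over the input of its own treatment or of MAK683 over DMSO. The 95% intervals given are exact intervals of counting error only, and amplified reads without molecular identifiers are not independent molecules. A floor of 3 counts corresponded to 0.141 to 0.225 CPM. Of the 39 genes, 33 had counts and 6 were at 0 in every library, input included, namely IFIT1, IFIT2, IFIT3, OAS2, OAS3 and IRF9. In the GENCODE 44 annotation on GRCh37 at least part of each of these 6 spans lies within another gene, and an input of 0 leaves their chromatin unmeasured. The remaining genes of the GBP and IFIT families are close relatives that may share reads, so their separate values are uncertain.

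The promoters of 6 genes are shown because they belong to the genes with the highest H3K27me3 or H3K4me3 values or with the MAK683 change described below. They are RefSeq sequences on GRCh38.p14, each from 250 bases before to 50 bases after a transcription start and written 5′ to 3′ on the strand of the gene. Capitals mark the core of an interferon-stimulated response element, which is GAAA, any 2 bases and GAAA again, or on the other strand TTTC, any 2 bases and TTTC. Adjacent matches share bases in IFIH1, ISG15 and BST2.
GBP1, chr1:89065159-89065458, minus strand: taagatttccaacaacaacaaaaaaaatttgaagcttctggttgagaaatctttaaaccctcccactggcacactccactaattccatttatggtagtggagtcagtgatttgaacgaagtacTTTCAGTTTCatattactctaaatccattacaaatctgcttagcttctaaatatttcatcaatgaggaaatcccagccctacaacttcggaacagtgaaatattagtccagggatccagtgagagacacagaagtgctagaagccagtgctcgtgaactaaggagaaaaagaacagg
IFI44L, chr1:78620198-78620497, plus strand: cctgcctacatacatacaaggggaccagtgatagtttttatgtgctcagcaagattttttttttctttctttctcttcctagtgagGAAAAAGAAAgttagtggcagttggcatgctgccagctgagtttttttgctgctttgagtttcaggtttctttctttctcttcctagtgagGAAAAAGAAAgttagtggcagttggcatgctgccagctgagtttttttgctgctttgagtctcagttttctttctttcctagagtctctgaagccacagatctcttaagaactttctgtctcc
IFIH1, chr2:162318635-162318934, minus strand: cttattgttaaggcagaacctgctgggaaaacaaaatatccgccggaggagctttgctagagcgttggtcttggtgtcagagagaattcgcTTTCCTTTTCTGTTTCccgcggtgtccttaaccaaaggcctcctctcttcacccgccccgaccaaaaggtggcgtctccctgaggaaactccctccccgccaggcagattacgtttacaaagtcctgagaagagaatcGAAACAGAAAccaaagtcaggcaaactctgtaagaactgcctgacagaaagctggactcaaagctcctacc
ISG15, chr1:1013247-1013546, plus strand: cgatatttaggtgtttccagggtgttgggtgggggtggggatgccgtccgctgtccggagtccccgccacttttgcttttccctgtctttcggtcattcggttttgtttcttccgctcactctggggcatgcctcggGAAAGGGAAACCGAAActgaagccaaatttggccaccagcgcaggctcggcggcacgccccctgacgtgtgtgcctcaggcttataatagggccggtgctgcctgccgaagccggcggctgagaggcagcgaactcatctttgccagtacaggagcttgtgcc
BST2, chr19:17405581-17405880, minus strand: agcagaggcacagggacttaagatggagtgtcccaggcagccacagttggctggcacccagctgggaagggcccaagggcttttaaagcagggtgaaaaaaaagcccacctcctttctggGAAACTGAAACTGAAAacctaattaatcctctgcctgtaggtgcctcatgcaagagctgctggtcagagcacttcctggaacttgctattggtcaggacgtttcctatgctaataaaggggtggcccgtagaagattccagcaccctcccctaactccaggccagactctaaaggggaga
MX1, chr21:41420308-41420607, plus strand: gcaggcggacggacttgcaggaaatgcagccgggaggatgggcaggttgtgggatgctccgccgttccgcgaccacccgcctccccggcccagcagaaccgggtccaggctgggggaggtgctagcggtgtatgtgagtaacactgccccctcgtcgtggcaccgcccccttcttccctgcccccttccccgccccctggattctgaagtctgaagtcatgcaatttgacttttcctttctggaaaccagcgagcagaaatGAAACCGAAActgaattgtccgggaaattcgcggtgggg
IFI44L held 2 copies of the same 10 letters, GAAAAAGAAA, inside a repeated stretch, and IFIH1 held 3 matches. Of the 32 genes with a promoter entry, 21 (65.6%) held the element on either strand in at least 1 promoter, against 1195 of 27305 genes with an entry (4.38%). Counted by promoter rather than by gene, 3.57% of 35116 promoters held it. No promoter entry was matched for MX2, OASL, IRF7, GBP2, GBP5, IFIT2 and OAS2.

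In DMSO the 33 genes were divided between the modifications. H3K27me3 over input had a median log2 ratio of -0.32 over these genes, against -0.61 over all 31031 genes compared and -0.82 over the protein-coding genes among them. At least 2-fold over input were 4 of the 33, where 15.4% of all genes and 10.8% of protein-coding genes were. These were GBP5, GBP1, IFI44 and IFIH1. At least 2-fold below input were 6 of the 33, where 26.6% of all genes were. For 12 genes the interval lay above the share of the library, where 24.4% of all genes did so, and for 16 it lay below, where 52.2% did so. Scaling by the median of ratios instead of by library totals raised all H3K27me3 values over input in DMSO by 0.58, which took the median to 0.26 and moved IRF1, IRF7, DDX60, MX1 and MX2 from below to above input. With that scaling 13 of the 33 genes were at least 2-fold over input, where 26.8% of all genes were.

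The guanylate-binding proteins, GTPases that attack pathogen-containing compartments, stood together. GBP5, a member of the family that promotes inflammasome assembly, had 155 H3K27me3, 26 H3K4me3 and 41 input counts in DMSO and 100, 50 and 58 in MAK683. Its H3K27me3 over input in DMSO was 1.71 (95% interval 1.23 to 2.27) on the log2 scale. GBP1, at chr1:89517565-89531043 on GRCh37, had 445 H3K27me3, 125 H3K4me3 and 170 input counts in DMSO and 278, 100 and 166 in MAK683. In both genes H3K27me3 exceeded input in either treatment while H3K4me3 stayed below it in CPM. GBP2 had 622 H3K27me3, 194 H3K4me3 and 293 input counts in DMSO and 407, 144 and 375 in MAK683. GBP3 had 382 H3K27me3, 101 H3K4me3 and 178 input counts in DMSO and 237, 104 and 215 in MAK683. GBP4 had 558 H3K27me3, 158 H3K4me3 and 251 input counts in DMSO and 314, 169 and 244 in MAK683. All 5 genes lay above input for H3K27me3 in DMSO, with log2 ratios from 0.90 to 1.71 and every interval above the library share, and all 5 lay below input for H3K4me3, from -1.15 to -0.78. These directions held under median-of-ratios scaling as well.

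The RNA sensors differed among themselves. IFIH1, which encodes the sensor MDA5 for long double-stranded RNA, had 1269 H3K27me3, 399 H3K4me3 and 549 input counts in DMSO and 772, 402 and 681 in MAK683. Its H3K27me3 over input in DMSO was 1.02 (95% interval 0.88 to 1.17) on the log2 scale. DDX58, encoding RIG-I, the sensor of 5′-triphosphate RNA, had 494 H3K27me3, 864 H3K4me3 and 907 input counts in DMSO and 396, 755 and 951 in MAK683. Its value was -1.06 (95% interval -1.22 to -0.90), and its span is almost entirely shared with other genes in the annotation used here, which makes it uncertain. DDX60, a helicase related to both, had 1230 H3K27me3, 858 H3K4me3 and 1289 input counts in DMSO and 918, 946 and 1465 in MAK683. It lay at -0.25, below input by library totals and above it by the median of ratios. H3K4me3 over the whole gene was below input in all 3 sensors, from -0.92 to -0.41.

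The transcription factors carried H3K4me3. IRF1, which responds to interferon gamma, had 91 H3K27me3, 884 H3K4me3 and 105 input counts in DMSO and 68, 874 and 153 in MAK683. IRF7, needed to amplify type I interferon, had 31 H3K27me3, 215 H3K4me3 and 37 input counts in DMSO and 26, 203 and 67 in MAK683. STAT2, which carries the signal of type I interferon to the nucleus, had 120 H3K27me3, 686 H3K4me3 and 268 input counts in DMSO and 104, 549 and 252 in MAK683. Their H3K4me3 over input in DMSO was 2.73, 2.18 and 1.02 on the log2 scale, so all 3 were at least 2-fold over input. None was above input for H3K27me3 by library totals, and STAT2 was among the lowest at -1.34 (95% interval -1.67 to -1.03). IRF1 lies wholly within the span of other genes in the annotation used here, so its counts may include theirs or lack shared reads.

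The highest H3K4me3 values over input were those of ISG15 and BST2. ISG15, a ubiquitin-like protein that is attached to other proteins, had 17 H3K27me3, 536 H3K4me3 and 8 input counts in DMSO and 13, 447 and 20 in MAK683. Its H3K4me3 over input in DMSO was 5.59 (95% interval 4.74 to 6.95) on the log2 scale. BST2, or tetherin, which holds budding virions at the cell surface, had 20 H3K27me3, 1255 H3K4me3 and 32 input counts in DMSO and 11, 1110 and 56 in MAK683. Its value was 4.92 (95% interval 4.45 to 5.51). Both values rest on small input counts, and for ISG15 the value dropped to 4.72 with a pseudocount of 0.5 CPM. H3K27me3 in ISG15 was 17 counts in DMSO, with an interval of -0.39 to 2.32 that included input. HERC5, the ligase that attaches ISG15, had 370 H3K27me3, 653 H3K4me3 and 671 input counts in DMSO and 278, 555 and 742 in MAK683. Its relative HERC6 had 494 H3K27me3, 1066 H3K4me3 and 855 input counts in DMSO and 350, 847 and 903 in MAK683. Both ligases lay about 1 log2 unit below input for H3K27me3 in DMSO, at -1.04 and -0.98.

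Across the 33 genes the median of H3K4me3 over input in DMSO was -0.38, against -0.27 over all 30610 genes compared and 0.21 over protein-coding genes. At least 2-fold over input were 8 of the 33, where 23.9% of all genes and 32.7% of protein-coding genes were. Beside the 5 genes named above these were IFIT5, IFI6 and IFI35. At least 2-fold below input were 4 of the 33, namely IFI16, GBP3, IFI27 and GBP4, where 17.5% of all genes and 10.4% of protein-coding genes were. A count over a whole gene dilutes a signal confined to a start site, so a long gene with a narrow H3K4me3 peak can lie below input.

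**Figure D1:**
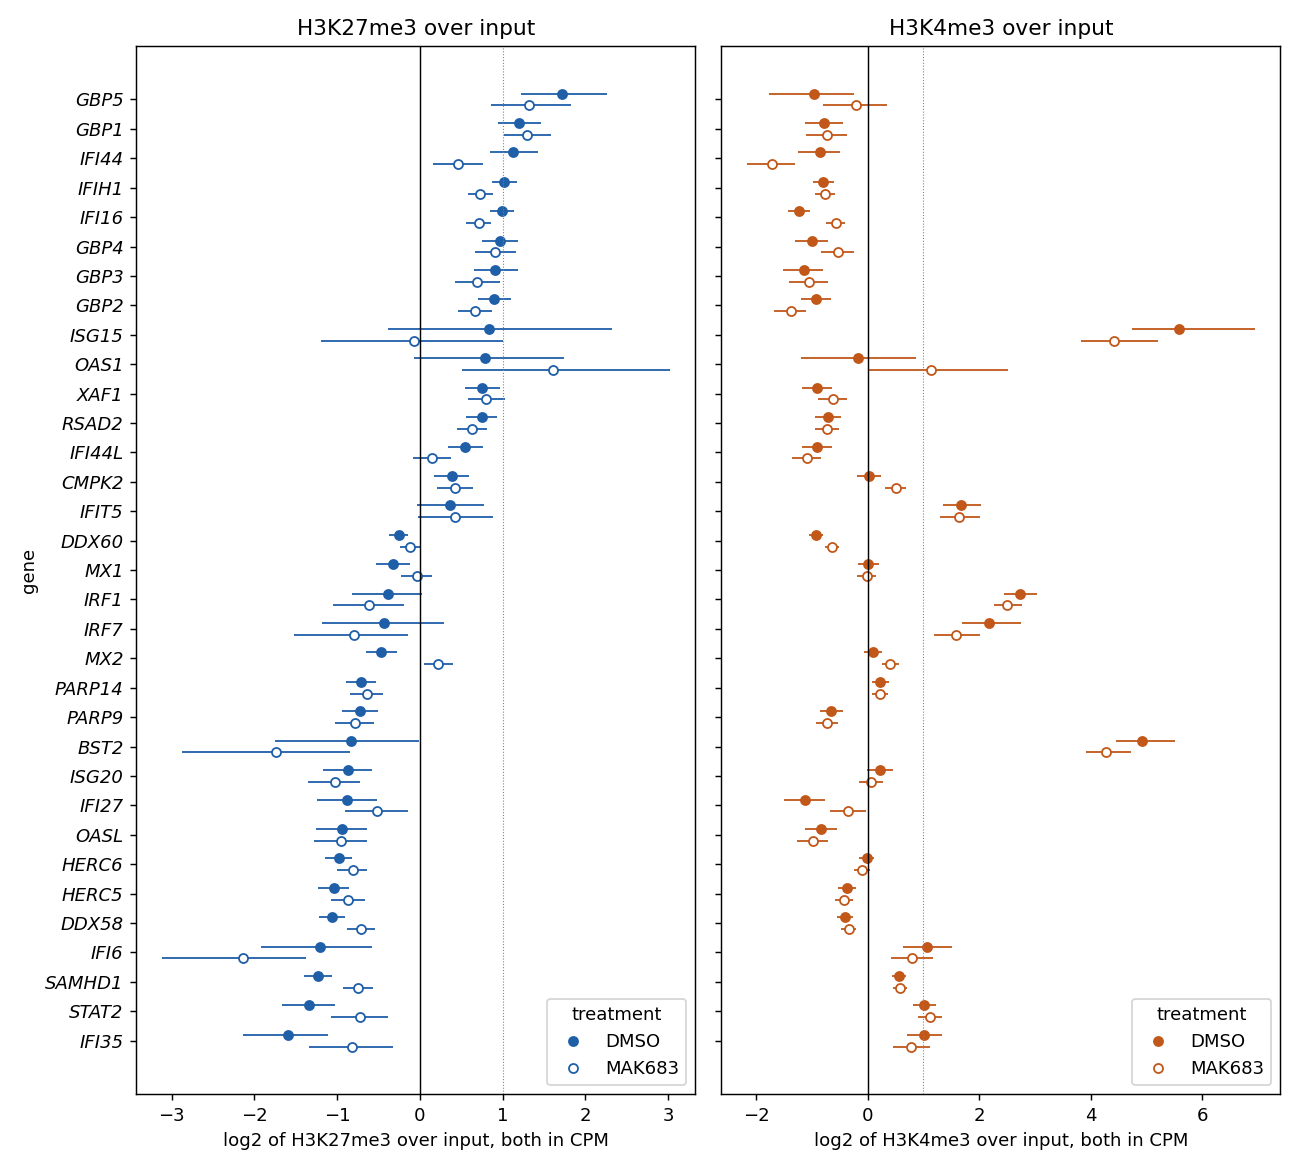
H3K27me3 (left) and H3K4me3 (right) over the input of the same treatment, as log2 ratios of CPM, for the 33 genes with counts, ordered by H3K27me3 in DMSO. Filled points are DMSO, open points MAK683, lines 95% counting intervals and the dotted line 2-fold, and GBP5 leads for H3K27me3 at 1.71 while ISG15 leads for H3K4me3 at 5.59.

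Among the IFI genes, whose members are named only for their induction, both states were seen. IFI44, a cytoplasmic antiviral protein, had 357 H3K27me3, 99 H3K4me3 and 143 input counts in DMSO and 182, 59 and 194 in MAK683. Its neighbor and relative IFI44L had 500 H3K27me3, 202 H3K4me3 and 300 input counts in DMSO and 280, 174 and 370 in MAK683. IFI16, a sensor of foreign DNA, had 1374 H3K27me3, 326 H3K4me3 and 607 input counts in DMSO and 795, 480 and 713 in MAK683. The H3K27me3 intervals of these 3 genes lay above input in DMSO, with log2 ratios of 1.13, 0.55 and 0.99, and their H3K4me3 lay below it. IFI6, an inhibitor of flavivirus replication, had 30 H3K27me3, 164 H3K4me3 and 62 input counts in DMSO and 14, 164 and 94 in MAK683, and 51.8% of its span is unshared with other genes. IFI35 had 45 H3K27me3, 308 H3K4me3 and 121 input counts in DMSO and 47, 210 and 122 in MAK683. IFI27 had 105 H3K27me3, 98 H3K4me3 and 170 input counts in DMSO and 86, 142 and 181 in MAK683. These 3 lay below input for H3K27me3, and IFI35 was the lowest of the 33 genes at -1.59 (95% interval -2.14 to -1.11).

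Of the other antiviral effectors, RSAD2, or viperin, whose product terminates viral RNA chains, had 672 H3K27me3, 272 H3K4me3 and 352 input counts in DMSO and 501, 289 and 475 in MAK683. CMPK2, a mitochondrial nucleotide kinase encoded beside it, had 467 H3K27me3, 402 H3K4me3 and 314 input counts in DMSO and 340, 529 and 372 in MAK683. XAF1, which promotes apoptosis, had 548 H3K27me3, 192 H3K4me3 and 286 input counts in DMSO and 374, 205 and 314 in MAK683. All 3 lay above input for H3K27me3 in DMSO, at 0.74, 0.39 and 0.75 on the log2 scale. SAMHD1, which depletes deoxynucleotides, had 410 H3K27me3, 1569 H3K4me3 and 844 input counts in DMSO and 350, 1291 and 863 in MAK683. ISG20, an exonuclease, had 159 H3K27me3, 375 H3K4me3 and 256 input counts in DMSO and 114, 359 and 342 in MAK683. Both lay below input for H3K27me3, at -1.23 and -0.87.

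The smaller families were divided or lay low. IFIT5, which binds viral RNA ends, had 129 H3K27me3, 357 H3K4me3 and 88 input counts in DMSO and 81, 278 and 88 in MAK683. OAS1, a synthase of the 2′,5′-oligoadenylates that activate RNase L, had 34 H3K27me3, 19 H3K4me3 and 17 input counts in DMSO and 20, 21 and 9 in MAK683. OASL, its relative without that activity, had 141 H3K27me3, 168 H3K4me3 and 238 input counts in DMSO and 113, 163 and 321 in MAK683. Counts of OAS1 were too few to place it, with an interval of -0.07 to 1.75 for H3K27me3 over input in DMSO. Only 6.5% of its span is unshared with other genes in the annotation used here. PARP9, part of a ligase complex in the interferon response, had 305 H3K27me3, 355 H3K4me3 and 443 input counts in DMSO and 220, 338 and 557 in MAK683. PARP14, encoded nearby, had 439 H3K27me3, 935 H3K4me3 and 632 input counts in DMSO and 307, 822 and 703 in MAK683. Both PARP genes lay below input for H3K27me3 in DMSO, at -0.72 and -0.71. MX1 and MX2, dynamin-like GTPases that trap viral nucleocapsids, are described with the MAK683 comparison.

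Set together by library totals, 3 of the 33 genes were above input for both modifications, where 6.02% of all genes were. In DMSO 12 of the 33 genes (36.4%) were above input for H3K27me3 only and 11 (33.3%) for H3K4me3 only. IFIT5, CMPK2 and ISG15 (9.09%) were above input for both, and 7 (21.2%) for neither. The H3K27me3 intervals of IFIT5 and ISG15 included input, and CMPK2 stood at 0.02 for H3K4me3, so these placements are loose. With median-of-ratios scaling IRF1, IRF7, MX1, MX2 and OAS1 joined the genes above input for both. That made 8 of 33 above input for both and 5 for neither. By library totals and in the order given first, the shares over all 29607 genes with both values were 25.1%, 34.9%, 6.02% and 33.9%. Over protein-coding genes they were 19.2%, 50.2%, 4.59% and 26.0%. These shares were not recomputed with median-of-ratios scaling, so the 8 of 33 cannot be set against them. Spearman's rho between the ratios of H3K27me3 and H3K4me3 over input was -0.51 over the 33 genes, which share the same libraries and the same input in both ratios. The rank correlation of H3K4me3 over input with the summed input counts, a measure of the counted span, was -0.29, and that of H3K27me3 was -0.22.

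**Figure D2:**
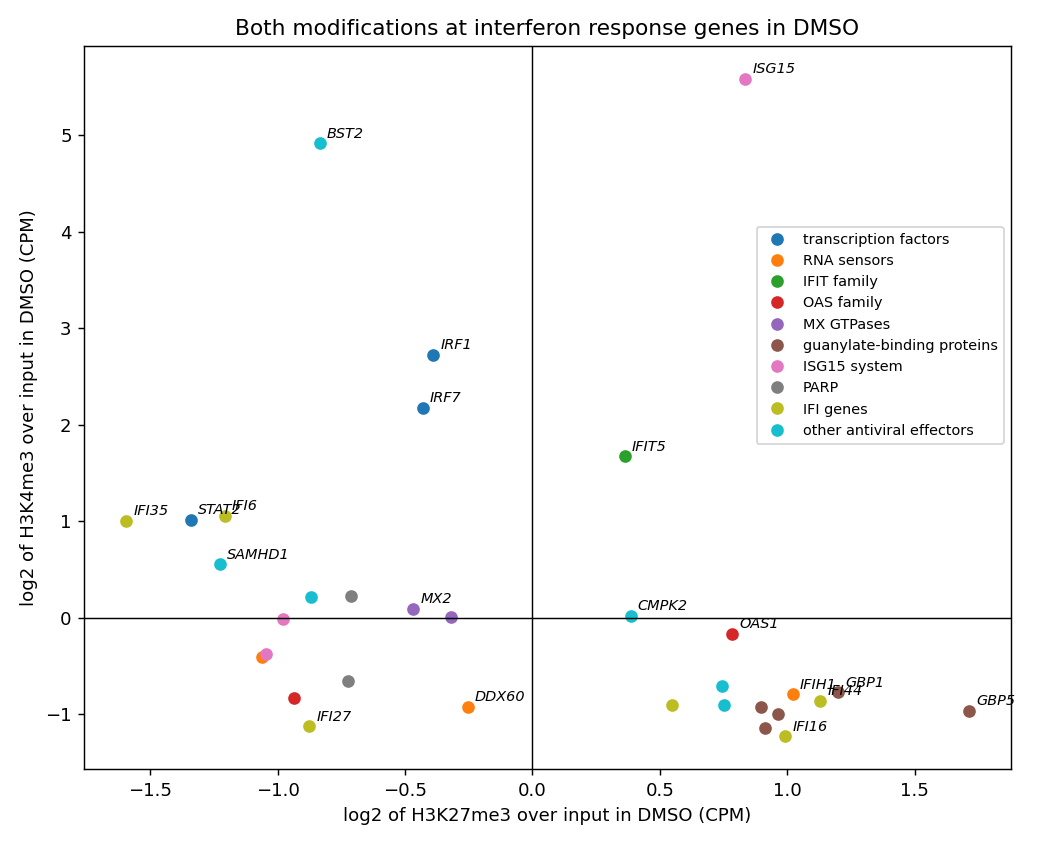
H3K27me3 over input (horizontal) against H3K4me3 over input (vertical) in DMSO, both as log2 ratios of CPM, for 33 genes colored by role. The 5 guanylate-binding proteins lie at the lower right, ISG15 and BST2 at the top, and 3 genes are above 0 on both axes.

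CpG content was set against the H3K27me3 value of library totals. The 13 genes above input for H3K27me3 with a promoter entry had a median of 3.0 CpG per 300-base promoter, taking the promoter with most CpG of each gene, and 7 of them had at most 5. These 7 were OAS1, IFI16, the adjacent IFI44 and IFI44L, and GBP1, GBP3 and GBP4 of the same cluster, so they are not independent. OAS1, IFIT5 and ISG15 were placed above input although their intervals included it. The 15 genes below input had a median of 19.0, and 1 of them had at most 5. The range overlapped, from 0 to 45 above input and from 2 to 36 below it. With median-of-ratios scaling, which moves IRF1, DDX60 and MX1 to the genes above input, the medians were 9.0 over 16 genes above and 17.5 over 12 below. The response element was found in 9 of the 13 and in 9 of the 15. Over all genes with an entry the median was 16.0, and their share with at most 5 CpG was not computed.

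After 3 days of MAK683 the 33 genes together held 0.0675% of the H3K27me3 counts, after 0.0669% in DMSO. The median log2 ratio of MAK683 over DMSO was 0.05 over the 33 genes, against 0.08 over all 29931 genes compared. None of the 33 was at least 1.5-fold lower, where 7.76% of all genes and 3.13% of protein-coding genes were, and 1 was at least 1.5-fold higher, where 11.4% of all genes were. The interval lay below the share of the library for 5 genes, where 13.6% of all genes did so, and above it for 4, where 22.7% did so. CPM show a share of a library, so a loss of H3K27me3 common to all genes would not be seen. Whether the deposited counts already carry scaling by the chromatin spike-in was not tested. The paper, whose ChIP data were scaled by that spike-in, reported a massive depletion of H3K27me3 across the genome after MAK683. In counts as deposited, where the MAK683 H3K27me3 library was smaller by 0.53 log2 units in total, 13 of the 33 were at least 1.5-fold lower, where 36.4% of all genes were, and 16 genes that were above 0 in CPM came out below it. H3K27me3 over input in MAK683 was at least 2-fold for 3 genes, where 10.7% of all genes and 7.11% of protein-coding genes were. These were OAS1, on 20 counts against 9, GBP5 and GBP1. The median over the 33 was -0.07, against -0.46 over all genes.

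The 5 genes with an interval below the library share were all above input for H3K27me3 in DMSO, a ratio that uses the same DMSO library. IFI44 went from 357 to 182 counts, a log2 ratio of -0.44 (95% interval -0.71 to -0.18). IFI44L went from 500 to 280 counts, a ratio of -0.31 (95% interval -0.53 to -0.10). GBP4 went from 558 to 314 counts, a ratio of -0.30 (95% interval -0.51 to -0.10). IFI16 and IFIH1 followed at -0.26 and -0.19. The other guanylate-binding proteins had ratios from -0.16 to -0.09 with intervals that included the library share. With the change of the input subtracted, GBP1 turned from -0.15 to 0.09 and GBP4 moved from -0.30 to -0.05. The other 3 guanylate-binding proteins then lay between -0.39 and -0.22, and IFI44 at -0.67. Lower still were IFI6, ISG15 and BST2, at -0.93, -0.90 and -0.90, each on few H3K27me3 counts.

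MX2 was the only gene of the 33 at least 1.5-fold higher in H3K27me3 by library totals, and none was so in counts as deposited. It had 427 H3K27me3, 700 H3K4me3 and 519 input counts in DMSO and 499, 834 and 627 in MAK683. Its log2 ratio of MAK683 over DMSO was 0.75 (95% interval 0.56 to 0.94). MX1, its neighbor, had 372 H3K27me3, 519 H3K4me3 and 408 input counts in DMSO and 386, 578 and 582 in MAK683. Its ratio was 0.58 (95% interval 0.37 to 0.79). In counts as deposited the ratios were 0.22 for MX2 and 0.05 for MX1. Those counts were not scaled here for depth or spike-in, so their sign does not show a gain of H3K27me3. H3K4me3 was higher in the same genes, at 0.37 and 0.27, while the input ratios were 0.06 and 0.30. With the change of the input subtracted, the H3K27me3 ratio was 0.69 for MX2 and 0.28 for MX1. The H3K27me3 of neither gene was above input in DMSO by library totals.

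The genes around MX2 and MX1 had higher ratios too. Among the 10 nearest protein-coding genes on chromosome 21 with enough input counts, 5 on each side, 9 had H3K27me3 ratios above 0, where 63.4% of all protein-coding genes did, and 9 of 10 neighbors of HERC6 and HERC5 did so too. The median around the MX genes was 0.60, against 0.27 around HERC6 and HERC5. At least 1.5-fold higher were 6 of the 10, where 8.27% of protein-coding genes were, and none of the HERC neighbors was. DSCAM, a neuronal adhesion gene, went from 6420 to 6717 counts, a ratio of 0.59. TMPRSS2, a surface protease gene whose annotated span overlaps that of MX1, went from 584 to 720 counts, a ratio of 0.83. RIPK4 was the exception at -0.18. The median H3K4me3 ratio of these neighbors was 0.29 and that of their inputs 0.02. These neighbors were examined after the value of MX2 had been seen.

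The GBP genes differed from their flanks. GBP7 and GBP6, relatives within the cluster that were not on the list, lay at 0.91 and 0.96 for H3K27me3 over input in DMSO. CCBL2 and GTF2B on one side and LRRC8B and LRRC8D on the other lay between -1.18 and -0.93. LMO4 and BARHL2, transcription regulators farther out, were higher than any GBP gene, at 2.33 and 2.61. CMPK2 and RSAD2 had a median of 0.56 where their 10 neighbors had -0.95, IFI44L and IFI44 had 0.84 where theirs had -0.17, and XAF1 had 0.75 where its neighbors had -0.58. For IFI16, at 0.99, the neighbors were higher at a median of 1.29, and for IFIH1, at 1.02, they had a median of 0.64. HERC6 and HERC5 had -1.01 where their neighbors had -0.93.

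**Figure D3:**
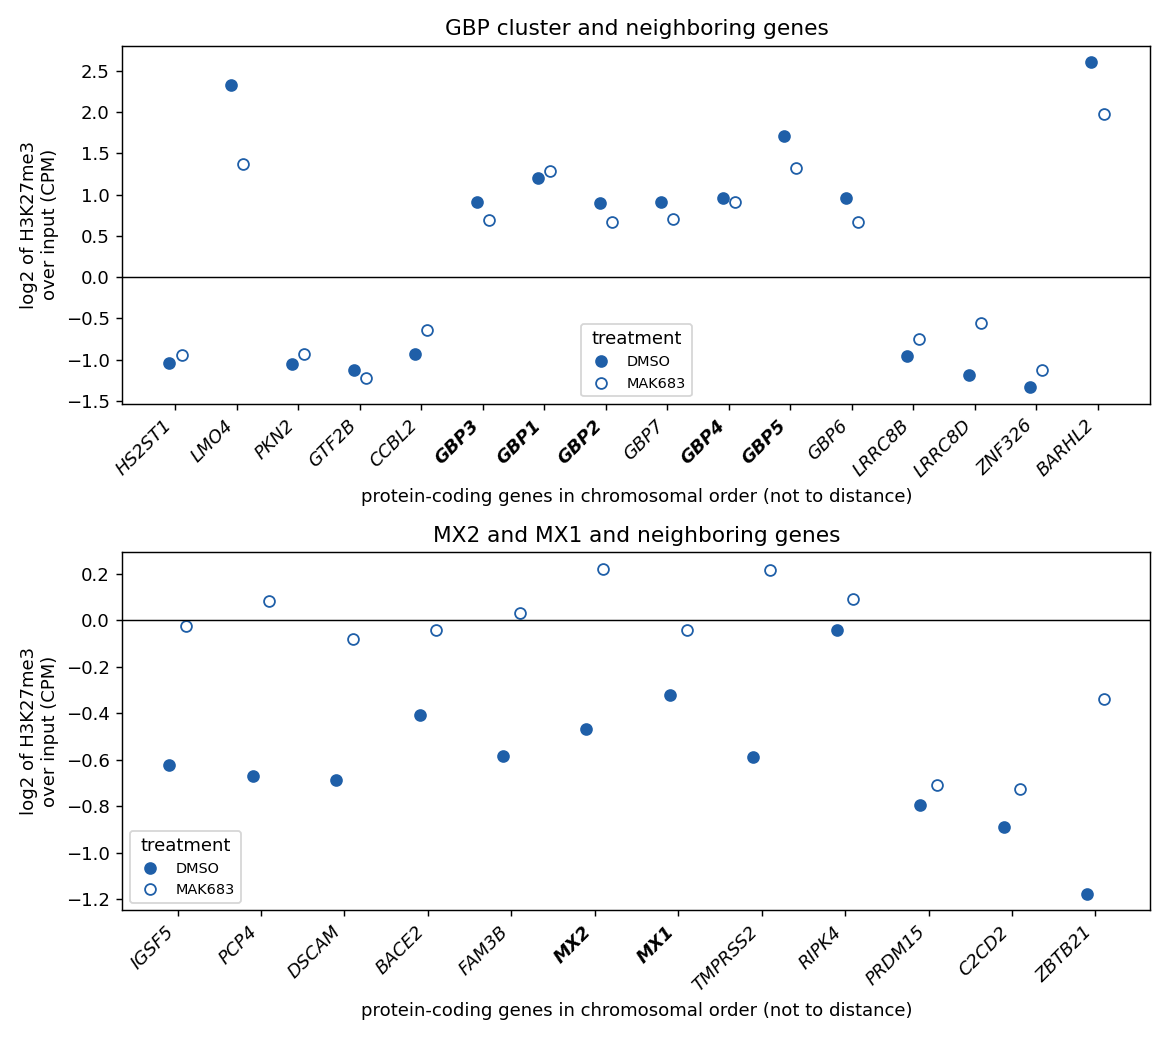
H3K27me3 over input, as a log2 ratio of CPM, in DMSO (filled) and MAK683 (open) for protein-coding genes in chromosomal order around the GBP cluster (top) and the MX genes (bottom), with listed genes in bold. GBP genes stand above 0 between flanking genes near -1, and around MX2 most genes are higher in MAK683 than in DMSO.

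In H3K4me3 the 33 genes held 0.0709% of the counts in DMSO and 0.0723% in MAK683, with a median log2 ratio of 0.05 over the 33 genes and 0.00 over all 30028 compared. At least 1.5-fold higher in MAK683 were 3 of the 33, where 9.94% of all genes and 4.93% of protein-coding genes were. GBP5 went from 26 to 50 counts, a ratio of 1.03 (95% interval 0.35 to 1.80). IFI16 went from 326 to 480 counts, a ratio of 0.67 (95% interval 0.47 to 0.88). IFI27, a small membrane protein, went from 98 to 142 counts, a ratio of 0.65 (95% interval 0.27 to 1.04). In MAK683 all 3 were nonetheless below input for H3K4me3 over the whole gene, at -0.22, -0.58 and -0.36. CMPK2 went from 402 to 529 counts, a ratio of 0.51 (95% interval 0.32 to 0.70), with input at 0.03.

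IFI44 was the only gene at least 1.5-fold lower in H3K4me3, where 4.98% of all genes and 1.63% of protein-coding genes were. It had 99 counts in DMSO and 59 in MAK683, a ratio of -0.62 (95% interval -1.12 to -0.15). Both modifications were thus lower in IFI44, while its input ratio was 0.23. In IFI16 the H3K27me3 share was lower and the H3K4me3 share higher. The interval lay above the library share for 7 genes in all, where 19.5% of all genes did so, and below it for 6, where 21.3% did so. ISG15 and BST2, the highest in H3K4me3, had ratios of -0.14 and -0.06 with intervals that included the library share. The lower H3K4me3 over input of ISG15 in MAK683, at 4.41 after 5.59 in DMSO, went with input counts of 8 and 20.

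**Figure D4:**
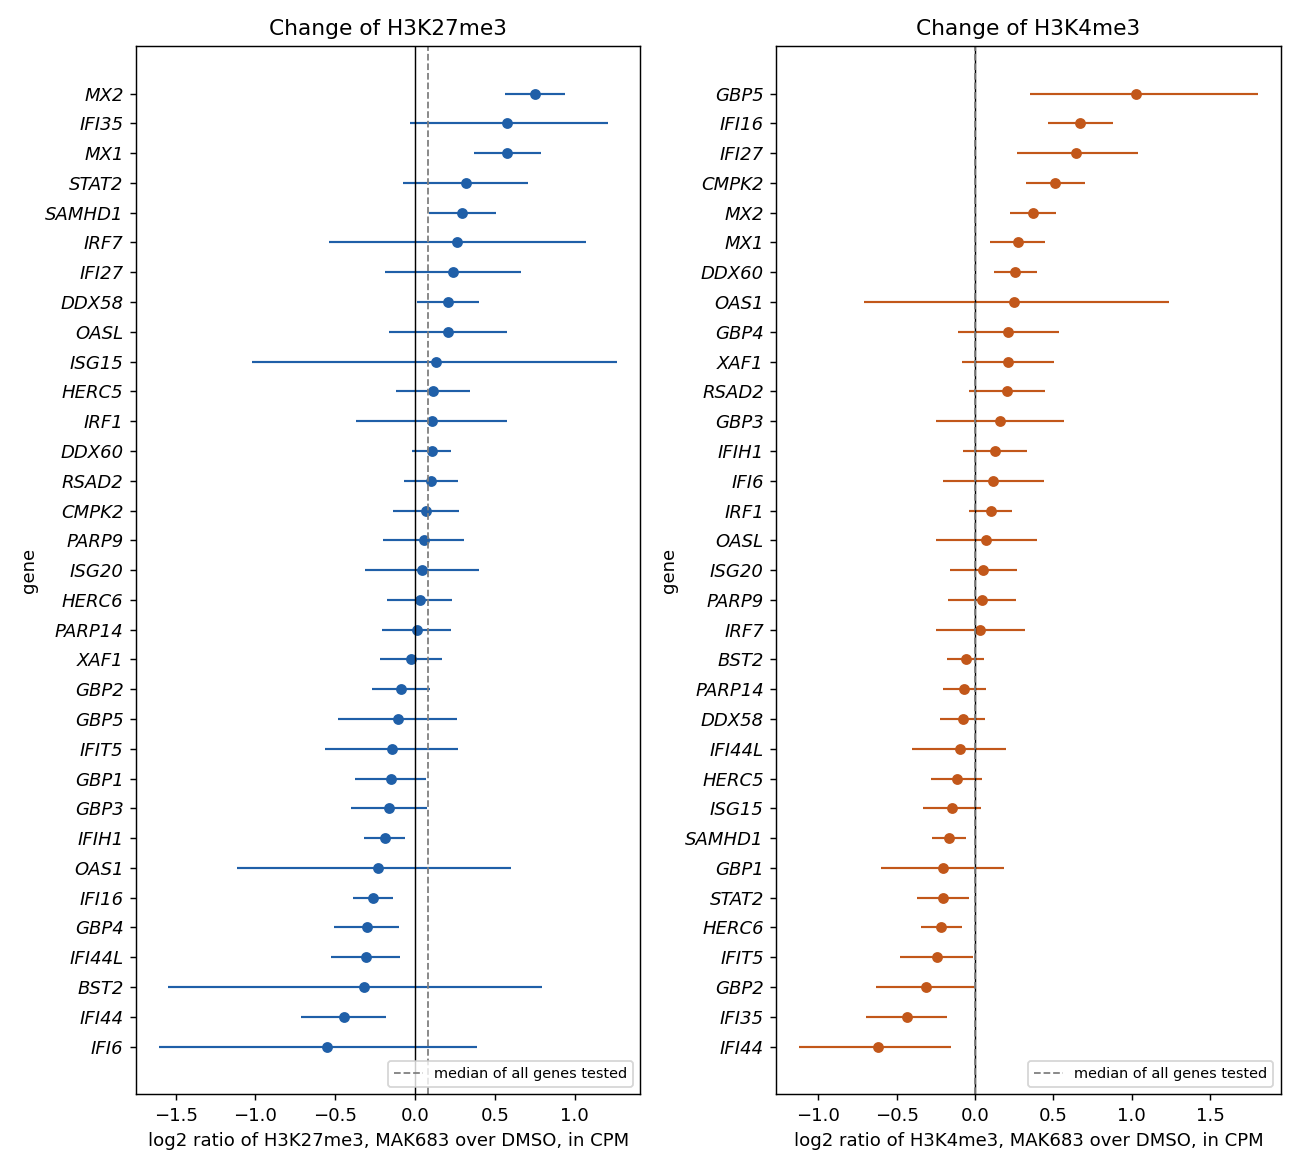
Log2 ratio of MAK683 over DMSO in CPM for H3K27me3 (left) and H3K4me3 (right) for the 33 genes, each panel ordered by its own ratio, with 95% counting intervals and the median of all genes as a dashed line. MX2 is highest for H3K27me3 at 0.75, and GBP5 is highest for H3K4me3 at 1.03 with a wide interval.

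The inputs give the background of the same genes without antibody. Input was at least 1.5-fold higher in MAK683 for ISG15 and IRF7, where 8.16% of all genes and 3.26% of protein-coding genes were. It was at least 1.5-fold lower for OAS1, where 5.55% of all genes and 1.7% of protein-coding genes were. ISG15 had 8 and 20 input counts, IRF7 37 and 67, and OAS1 17 and 9. OAS1 and ISG15 had the fewest input counts of the 33 genes, and their ratios over input are correspondingly loose. The input interval lay above the library share for IRF7, MX1 and RSAD2, where 9.44% of all genes did so, with MX1 at 0.30 (95% interval 0.11 to 0.49). It lay below for STAT2, DDX58 and SAMHD1, where 7.78% did so.

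The upstream part of the pathway was read from a list of 35 other genes, of which 29 were compared for H3K27me3 in DMSO. Their median over input was -0.91. At least 2-fold over input were 3, where 15.4% of all genes and 10.8% of protein-coding genes were. At least 2-fold below it were 12, where 26.6% of all genes and 33.4% of protein-coding genes were. Those over input were IRF8, a transcription factor of myeloid cells, at 1.21, ZBP1, a sensor of Z-form nucleic acid, at 1.49, and the interferon gene IFNB1, at 1.70 on 28 counts against 7. The receptor genes IFNAR1, IFNAR2, IFNGR1 and IFNGR2 were below input for H3K27me3, from -1.06 to -0.09, and above it for H3K4me3, at 1.53, 2.21, 1.82 and 1.81. The median of H3K4me3 over input in the list was 0.60. At least 2-fold over input were 12 of 29 genes compared, where 23.9% of all genes and 32.7% of protein-coding genes were.

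In MAK683 the H3K27me3 of this list had a median log2 ratio of 0.10. At least 1.5-fold lower was 1 of 29 genes compared, where 7.76% of all genes and 3.13% of protein-coding genes were. This was IFNL1, an interferon lambda gene, which went from 34 to 5 counts while its input went from 24 to 53. None was at least 1.5-fold higher, where 11.4% of all genes and 8.27% of protein-coding genes were. For H3K4me3, ZBP1 went from 134 to 208 counts, a ratio of 0.75, while its input went from 167 to 287 counts, a ratio of 0.57. IFNB1 went from 4 to 14 counts in H3K4me3 and from 7 to 14 in the inputs. Both input ratios thus pointed the same way as those of H3K4me3.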

How the data were processed

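The 6 libraries of G401 cells were analysed, with H3K27me3 ChIP, H3K4me3 ChIP and input from each treatment. The authors deposited whole-number counts of reads per gene, made with featureCounts from paired-end reads aligned to hg19. Per the submitters' notes and the methods, reads were trimmed with Trim Galore 0.4.4, aligned with Bowtie2 and depleted of repeat sequences with Picard 2.23.6. The gene annotation is not given in the sources used here. Drosophila spike-in factors were not used here.

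Counts were divided by library totals (13308099 to 21281877) to give CPM. Log2 ratios used a pseudocount of 0.05 CPM, and a gene entered a comparison when either of its libraries reached 10 counts. The share of counts in the first library was given an exact Clopper-Pearson 95% interval and set against the share of the library totals. Calls were 2-fold over input and 1.5-fold between treatments. With 1 library per treatment and antibody, no count model was fitted. All 39 listed genes could be named, grouped in 10 roles. Genes and lists were chosen with earlier results of these data known. Scripts ran in Python 3.11.15 with numpy 2.4.6, pandas 2.3.3 and scipy 1.17.1 and were tested on simulated data. Symbols were matched to GENCODE 44 on GRCh37, 38 directly and DDX58 under a newer symbol. Promoters came from RefSeq on GRCh38.p14.

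Alternatives were other pseudocounts, filters, folds and scalings, the summed inputs, the change of the input subtracted, and the list without IFIT and GBP genes. Neighboring genes, promoter features, the protein-coding background, and the rescaled background, CpG split and input-subtracted values of single genes were added after the data were seen.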

Additional observations from a re-analysis of the deposited data

How the results depend on the processing

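Over the list, 56 alternatives for medians and counts were run, and the values that moved most follow. The median of H3K27me3 over input in DMSO went from -0.32 to 0.26 with median-of-ratios scaling, a change of sign. The count of genes at least 2-fold over input for H3K27me3 in DMSO, 4 as reported, was 2 without IFIT and GBP genes, 13 with median-of-ratios scaling and 12 at a fold of 1.5. For H3K4me3 the count of 8 was 5 with a pseudocount of 0.5 CPM. The count of genes at least 1.5-fold lower in H3K27me3 in MAK683, 0 as reported, was 1 with median-of-ratios scaling, 13 in counts as deposited, 4 after subtracting the change of the input and 2 at a lower fold. The median H3K27me3 ratio of MAK683 over DMSO, 0.05 as reported, was -0.48 in counts as deposited, -0.05 with median-of-ratios scaling and -0.01 after subtracting the change of the input, so its sign depends on the scaling. The count of genes at least 1.5-fold higher in H3K4me3, 3 as reported, was 1 in counts as deposited and 1 at a fold of 2. These scalings shift all genes by construction, by -0.10 for the median of ratios and -0.53 for counts as deposited in the H3K27me3 comparison. For the genes past a fold, none of 161 alternatives changed the sign. Filters and the shortened list cannot change the ratio of a single gene, and these genes were picked for lying far from 0. The absence of sign changes was thus partly fixed in advance. Among all 33 genes, median-of-ratios scaling changed the sign of 5 for H3K27me3 over input in DMSO, 2 for H3K4me3 over input and 5 for the H3K27me3 change, and counts as deposited that of 16 for the H3K27me3 change and 5 for the H3K4me3 change. Beside the 2 counts of 13 genes, the shares of all genes at the same settings were 26.8% over input and 36.4% for the change. For the other changed folds, scalings and pseudocounts and for the sign changes no such share was computed. Those counts cannot be set against all genes. No paired analysis was possible because each treatment and antibody had 1 library. Counts of under about 30, as in OAS1 and in the input of ISG15, set the widest intervals.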
